A study of Mus musculus with 16 samples.

Results

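Described here are 7 genes of nuclear receptor signalling and retinoid synthesis in the embryonic ventricle, chosen by symbol from 5921 rows of the deposited expression table. They are the receptor genes Rara, Rxrg, Thra, Nr1d1, Nr2c1 and Esrrg, and Rdh10, which encodes the retinol dehydrogenase of the first oxidation on the way to retinoic acid. All 7 symbols were found. Nuclear receptors are transcription factors that bind DNA through a pair of zinc fingers and, in most members, switch between repressing and activating their target genes when a small lipophilic ligand is bound. Retinoic acid, the ligand of the retinoic acid receptors, is made in the embryo from retinol in successive oxidations, and these receptors act as heterodimers with a retinoid X receptor. The developing heart needs retinoic acid within a narrow range, and thyroid hormone receptors and oestrogen-related receptors set contractile and mitochondrial genes in heart muscle.

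Ventricles were dissected from mouse embryos of stage E11.5 and their RNA was sequenced, with 4 groups of 4 libraries. The sample titles name the tissue only as heart. Atf4, which encodes a transcription factor of the amino acid and protein folding stress responses, was removed in the conditional knockouts (cKO) by Xmlc2-Cre, a transgene active in cardiomyocytes, from an allele with exons 2 and 3 floxed (exon 2-3 line, batch 1 in the labels) or with exon 2 alone floxed (exon 2 line, batch 2). Each line had its own control group, and the labels do not say whether these controls carried Cre or a floxed allele. The genotype label reads C57BL/6 WT for every sample, cKO included, and no treatment was given. Cells other than cardiomyocytes keep Atf4 in this model and are part of each library. Line and batch cannot be told apart. Nothing in the labels ties a library to a litter, so p-values measure the spread between these samples.

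The values are TPM, transcript abundances scaled for gene length and library size. The rows held lie on chromosomes 1 and 10 and on chromosome 11 up to position 106501211, so the level of Atf4 itself was not analysed here and directions rest on the labels. They summed to between 15.2% and 17.1% of a library's TPM. Depth per library is unknown. Cardiomyocyte marker RNA was present in every library. Of the 16 cardiomyocyte genes listed 8 were on these chromosomes, all were tested, and their summed level lay between 12712 and 18673 TPM. Markers of neurons, or of ventricle against atrium, were not looked at. Genes were tested with limma on log2(TPM + 1), which understates changes of low genes, where the mean over 16 libraries was at least 1 TPM. This left 2620 genes and 6 of the 7 described here. Rxrg, with a mean of 0.369 TPM, fell under that minimum.

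The 6 receptors share the pair of zinc fingers of the family, and the coding bases of the first finger were compared. The first zinc finger was located by its spacing of 4 cysteine codons in the principal GENCODE M21 transcript of each gene (GRCm38) and read through to the end of the P box, the stretch that contacts the bases of the response element. Each sequence below is 69 bases, 5′ to 3′ on the coding strand, with the 6 P box codons in capitals.
Rara: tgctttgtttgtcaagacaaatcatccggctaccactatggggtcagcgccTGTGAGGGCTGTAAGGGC
Thra: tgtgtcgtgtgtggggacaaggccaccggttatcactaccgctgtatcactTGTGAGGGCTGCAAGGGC
Nr1d1: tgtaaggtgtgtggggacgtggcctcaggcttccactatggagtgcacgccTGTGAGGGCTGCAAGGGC
Rxrg: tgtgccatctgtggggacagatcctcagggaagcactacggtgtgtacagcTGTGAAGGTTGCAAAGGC
Nr2c1: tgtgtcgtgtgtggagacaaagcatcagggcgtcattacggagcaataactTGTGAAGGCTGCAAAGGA
Esrrg: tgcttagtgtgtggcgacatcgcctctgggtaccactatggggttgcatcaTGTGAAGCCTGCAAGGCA

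Over the 15 pairs of receptors these 69 bases were between 60.9% and 73.9% identical, with a median of 66.7%. The closest pair was Thra with Nr2c1 (51 of 69 bases), and the most distant was Rxrg with Esrrg (42 of 69). In the P box, Thra and Nr1d1 had the same 18 bases, and Rara matched each of them at 17 of 18. Esrrg matched the other receptors at 13 to 15 of 18 bases. Translated, the P box codons read CEGCKG in Rara, Thra, Nr1d1, Rxrg and Nr2c1, so their base differences there were synonymous. In Esrrg they read CEACKA. As background, oestrogen-related receptors read an extended single element, whereas the other receptors listed read AGGTCA-type elements as dimers, or with flanking bases as monomers.

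In Esrrg the 69 bases lie within exon 2 (chr1:188043659-188043727, plus strand). In the other 5 genes they span an intron: exons 4 to 5 of Rara (chr11:98966430-98968047, plus strand), exons 4 to 5 of Thra (chr11:98756958-98760878, plus strand), exons 3 to 4 of Nr1d1 (chr11:98771342-98771502, minus strand), exons 3 to 4 of Rxrg (chr1:167625045-167627332, plus strand) and exons 5 to 6 of Nr2c1 (chr10:94163780-94165458, plus strand).

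The genes sit in 5 places. Rdh10 (chr1:16105882-16132550), Rxrg (chr1:167598362-167639623) and Esrrg (chr1:187608510-188214885) are far apart on chromosome 1, and Nr2c1 (chr10:94147542-94197216) is alone on chromosome 10. Thra (chr11:98740776-98769006), Nr1d1 (chr11:98767932-98775377) and Rara (chr11:98927800-98974942) lie within 234.2 kb of chromosome 11. Thra and Nr1d1 are transcribed towards each other, and their rows overlap by 1075 bases. In GENCODE M21 the exons of both genes share 263 bases (chr11:98768157-98768419), which are 8.55% of the exonic bases of Nr1d1 and belong to 2 of 9 Thra transcripts. Whether the authors' quantification used strand is not given in the sources used here, so reads from this stretch may have been assigned to either gene, and the lower Nr1d1 value is the more exposed of the pair. Rara, Nr2c1 and Esrrg overlap other rows as well, none of them above 1.44 TPM in any library, and Rdh10 and Rxrg overlap none.

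RefSeq promoter windows (GRCm38.p6, 250 bases before to 50 after a start) were held for 5 of the 7 genes, with 12 windows in all. Since ATF4 binds a composite element, its core TGATGNAA was searched on both strands. It was in none of the 12 windows and in 3.97% of all 32851 windows. The element AGGTCA was in 2 of the 12, against 16.3% of all windows. The first of these was the window of the start inside Rxrg, tcggggttgaaAGGTCAgctgaaagctt (chr1:167618166-167618193, plus strand, the match in capitals), shown because Rxrg is the most variable gene of the set. The other was the window of the most downstream Rara start. AGGTCA followed by a copy in the same direction after 2 bases, or after 5 bases, was in none of the 12 and in 0.00913% of all windows for each spacing. The extended element TCAAGGTCA, which holds AGGTCA, was in none of the 12 and in 0.423% of all windows. CACGTG, the element of the clock activators, was at 1 position in 2 overlapping Rara windows, against 7.15% of all windows.

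In control ventricle Thra, the receptor gene for thyroid hormone, had the highest TPM of the 7 genes. The mean was 76.6 ± 9.11 TPM in the exon 2-3 controls and 95.1 ± 8.51 TPM in the exon 2 controls (SD, n = 4 each), above that of 87.5% and 90.1% of the genes tested. Rara, the retinoic acid receptor gene, and Esrrg, an orphan receptor gene linked to oxidative metabolism in heart, came next at levels that did not differ beyond their spread. Rara averaged 25.7 ± 3.38 and Esrrg 25.5 ± 1.94 TPM in the exon 2-3 controls, with Rara the higher in 2 of 4 libraries. In the exon 2 controls Rara averaged 33.3 ± 1.41 and Esrrg 35.3 ± 2.40 TPM, with Esrrg the higher in 3 of 4.

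Below a gap of more than 3-fold came Nr2c1, an orphan receptor gene whose product represses embryonic globin genes in red cells, at 7.10 ± 1.21 and 8.90 ± 0.674 TPM. Nr1d1, which encodes the haem-binding clock repressor REV-ERB alpha, averaged 4.59 ± 0.851 and 7.33 ± 0.964 TPM. The ranges of these genes overlapped in both control groups, although Nr2c1 was the higher in every control library. Rdh10 averaged 3.80 ± 0.411 and 4.35 ± 0.415 TPM. Its range overlapped that of Nr1d1 in the exon 2-3 controls and lay below it in the exon 2 controls. Rxrg was last, at 0.0830 ± 0.0203 TPM in the exon 2-3 controls and 0.923 ± 0.579 TPM in the exon 2 controls.

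**Figure D1:**
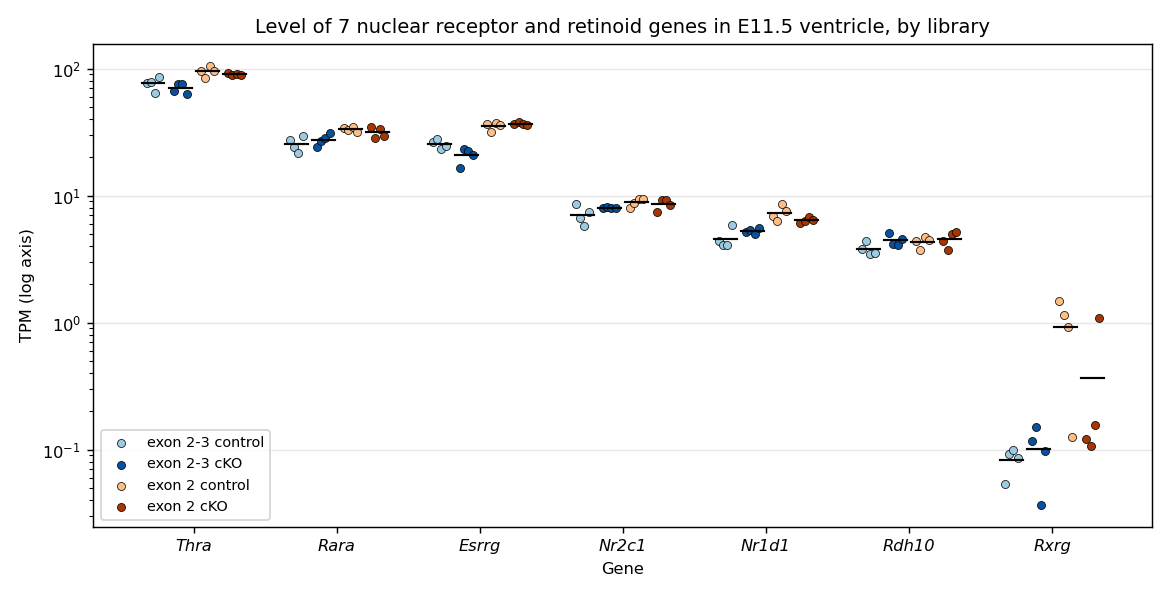
TPM on a log axis of the 7 genes in each of the 16 libraries (points), by group (colours), with the group mean as a bar. Thra stands highest and Rxrg lowest in every group, Esrrg is lower in the exon 2-3 cKO (16.6 to 23.4 TPM) than in 3 of its 4 controls, and Rxrg splits between about 0.1 and 1 TPM within the exon 2 line.

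The comparison of cKO with control asked whether the RNA of these genes in whole tissue differed with the cardiomyocyte knockout of Atf4. In the exon 2-3 line 0 of the 6 genes tested passed a limma adjusted p of 0.05, where 6.72% of all genes did, and for none of the 6 did cKO and control stand apart without overlap, against 14.5% of all genes. One of them, Esrrg, had an unadjusted p under 0.05, against 21.1% of all genes. The median log2 fold change was 0.14 over the 6 genes and 0.03 over all genes. In the exon 2 line 0 of 6 passed, against 0.0763% of all genes, and none had an unadjusted p under 0.05 (3.21% of all genes) or groups without overlap (1.83%).

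Esrrg came nearest to a change. In the exon 2-3 controls it measured 26.3, 27.7, 23.3 and 24.5 TPM in replicates 1 to 4, and in the cKO 16.6, 23.4, 22.4 and 20.8 TPM. The cKO libraries lay below the controls except that cKO replicate 2 equalled control replicate 3, the lowest control, within 0.02 TPM. The mean was 20.8 ± 2.99 against 25.5 ± 1.94 TPM (SD, n = 4 each), a log2 fold change of -0.29 (SE 0.10, 95% interval -0.52 to -0.06). The limma p was 0.0193 before and 0.139 after adjustment over all genes, so the difference did not pass. In one fit over all 16 libraries the adjusted p was 0.0484, where 3.24% of all genes were called lower. Without cKO replicate 1, the lowest library, the log2 fold change was -0.19, a value 1.5 times smaller, with an adjusted p of 0.222.

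In the exon 2 line Esrrg measured 36.5, 31.8, 37.2 and 35.7 TPM in the controls and 36.5, 38.2, 36.3 and 36.1 TPM in the cKO. The groups overlapped, and 3 of 4 cKO libraries were within the range of the controls. The log2 fold change was 0.06 (SE 0.06, 95% interval -0.08 to 0.19, limma adjusted p 0.999). The difference between the lines' effects, tested by the interaction term, was -0.35 (SE 0.12, 95% interval -0.61 to -0.09), with a p of 0.0121 and an adjusted p of 0.168. It passed after quantile normalisation (-0.42, adjusted p 0.0383), where 2.37% of all genes were called with a negative value. Over the interaction 0 of 6 genes were called, against 2.37% of all genes, and 2 had an unadjusted p under 0.05, against 15% of all genes.

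Markers of other cells moved in the same contrast. Of the epicardial list 2 of 8 genes were held, and both rose in the exon 2-3 cKO, where 4.16% of all genes were called higher and 2.56% lower: Tcf21 by 0.70 and Krt19 by 0.41 on the log2 scale (limma adjusted p 0.000969 and 0.0143). Their summed level was 116 to 131 TPM in controls and 168 to 191 TPM in cKO. Of the fibroblast and valve mesenchyme list 6 of 9 genes were held and 4 rose, Col1a1, Col3a1, Col5a2 and Dcn, with summed levels of the 6 genes of 291 to 333 TPM in controls and 429 to 470 TPM in cKO. Of the 8 cardiomyocyte genes 1 fell, Hand1 (-0.60, adjusted p 0.00573), and the median was -0.10, with summed levels of 17193 to 18673 TPM in controls and 16671 to 17674 TPM in cKO. Erythroid marker RNA ranged from 2995 to 4554 TPM in controls and from 1512 to 11293 TPM in cKO over 4 genes, and no erythroid, endothelial or myeloid marker tested was called. The part of these markers in the value of Esrrg was not tested. In whole ventricle, fewer cells of a type and less RNA per cell cannot be told apart. No marker of these lists was called in the exon 2 line (0.0763% of all genes).

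The other receptor and retinoid genes had smaller or less certain differences in the exon 2-3 line. Rdh10 measured 3.79, 4.38, 3.49 and 3.53 TPM in controls and 5.05, 4.17, 4.10 and 4.56 TPM in cKO. Its groups overlapped only through control replicate 2, and the log2 fold change was 0.19 (SE 0.10, 95% interval -0.03 to 0.41, limma adjusted p 0.309). Nr1d1 measured 4.39, 4.06, 4.07 and 5.84 TPM in controls and 5.17, 5.33, 5.02 and 5.53 TPM in cKO. Control replicate 4 was above every cKO library and the other 3 controls were below, and the log2 fold change was 0.17 (SE 0.11, 95% interval -0.07 to 0.42, adjusted p 0.400). Nr2c1 lay between 5.76 and 8.59 TPM in controls and between 7.98 and 8.11 TPM in cKO. The controls thus spread on both sides of a narrow cKO group, with a log2 fold change of 0.17 (95% interval -0.07 to 0.41). It was 0.09 without control replicate 3 and 0.26 without control replicate 1. Without control replicate 4, the value of Nr1d1 was 0.28 (adjusted p 0.0991).

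Thra measured 76.8, 79.0, 64.3 and 86.2 TPM in the exon 2-3 controls and 66.3, 75.1, 75.8 and 62.7 TPM in the cKO. The log2 fold change was -0.12 (95% interval -0.34 to 0.09, limma adjusted p 0.495). Rara measured 27.4, 24.1, 21.8 and 29.4 TPM in these controls and 24.2, 26.9, 28.3 and 30.9 TPM in the cKO. Its log2 fold change was 0.10 (95% interval -0.12 to 0.33, adjusted p 0.613). Control replicate 3 was the lowest of its group for both genes and for Nr2c1, Esrrg and Rdh10, and its rows also summed to the smallest part of a library, 15.2% of TPM. Without it the log2 fold change was -0.20 for Thra and 0.03 for Rara. With 1 library left out, values lay between -0.20 and -0.07 for Thra (-0.07 without control replicate 4 or cKO replicate 4) and between 0.03 and 0.17 for Rara (0.05 without cKO replicate 4, 0.16 without cKO replicate 1, 0.17 without control replicate 4), and none passed.

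In the exon 2 line the intervals were narrower for Thra and Rara. Thra lay between 84.2 and 105 TPM in controls and between 88.6 and 91.7 TPM in cKO, with a log2 fold change of -0.07 (SE 0.06, 95% interval -0.22 to 0.07). Rara lay between 31.6 and 34.7 TPM in controls and between 28.7 and 34.6 TPM in cKO (-0.08, 95% interval -0.24 to 0.08).

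Nr1d1 measured 6.90, 6.32, 8.57 and 7.52 TPM in the exon 2 controls and 6.11, 6.31, 6.82 and 6.37 TPM in the cKO. The cKO libraries lay at the low end of the controls, with overlap, and the log2 fold change was -0.16 (SE 0.10, 95% interval -0.38 to 0.05, limma adjusted p 0.999). Its direction was opposite to that of the exon 2-3 line, and the interaction term was 0.34 (95% interval 0.03 to 0.65), with a p of 0.0329 and an adjusted p of 0.273. Nr2c1 (-0.05, 95% interval -0.26 to 0.15) and Rdh10 (0.06, 95% interval -0.19 to 0.30) had overlapping groups in this line as well.

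**Figure D2:**
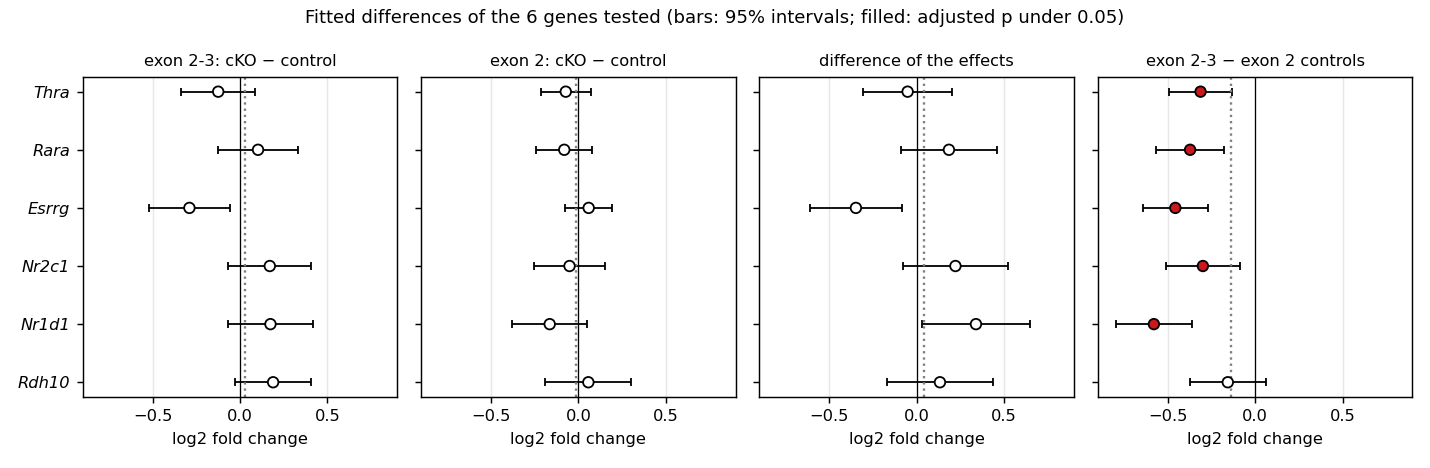
Log2 fold change on log2(TPM + 1) of the 6 genes tested (points) with 95% intervals (bars) for each knockout against its controls, the difference of these effects, and the exon 2-3 against the exon 2 controls. Filled points passed an adjusted p of 0.05, and the dotted line is the median of all 2620 genes. The filled points are the 5 genes lower in the exon 2-3 controls, against 38.1% of all genes (3 after median centring, against 20.4%).

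Rxrg, which encodes the gamma form of the retinoid X receptor, was near 0.1 TPM throughout the exon 2-3 line and uneven in the exon 2 line. The exon 2-3 controls measured 0.0537, 0.0922, 0.0999 and 0.0860 TPM and the cKO 0.117, 0.149, 0.0367 and 0.0981 TPM. The exon 2 controls measured 1.48, 1.16, 0.925 and 0.125 TPM, and the exon 2 cKO 0.121, 0.107, 0.156 and 1.09 TPM. Thus 3 controls and 1 cKO of the exon 2 line stood near 1 TPM, and the remaining 4 libraries of that line were in or close to the range of the exon 2-3 line.

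Knockout and control overlapped in both lines. The two-sided exact permutation p for cKO against control was 0.200 in the exon 2 line and 0.543 in the exon 2-3 line, where 4 against 4 allows no p below 0.0286. The control groups did not overlap, with the highest exon 2-3 control at 0.0999 TPM and the lowest exon 2 control at 0.125 TPM. With 4 against 4, such a separation by itself fixes the exact permutation p at 0.0286, so this p adds nothing to it. Of the 2620 genes tested, which leave out Rxrg, 45.5% had control groups without overlap and 32.6% were lower in the exon 2-3 controls. Controls 1, 2 and 3 and cKO 4 of the exon 2 line also had the most rows above 0 TPM in that line (4873, 4864, 4752 and 4705). Control 4 had 4531 and cKO 1 to 3 had 4551, 4625 and 4553. The part of this in the Rxrg level was not tested.

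The nearest row before Rxrg with a mean of at least 1 TPM did not split in this way within the exon 2 line. Mgst3, which lies 204521 bases away and encodes a microsomal glutathione transferase, ranged from 57.8 to 69.6 TPM over the 8 libraries of that line. This row was added after its values were seen, and the nearest such row after Rxrg is not given.

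The controls of the lines were then set against each other. Of the 6 genes tested 5 were lower in the exon 2-3 controls and none was higher, against 52.6% of all genes called, 38.1% lower and 14.4% higher. The median of all genes was -0.14 in this contrast, so every value below is to be read against that shift. The median of the 6 genes was -0.34.

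Nr1d1 differed most, with a log2 fold change of -0.58 (SE 0.10, 95% interval -0.80 to -0.36, limma adjusted p 0.000234). Its exon 2-3 controls reached 5.84 TPM and its exon 2 controls began at 6.32 TPM. Esrrg (-0.46, SE 0.09, adjusted p 0.000435) and Rara (-0.37, SE 0.09, adjusted p 0.00308) had groups without overlap as well, so that 3 of 6 genes did, all lower, against 45.5% of all genes in either direction and 32.6% lower. Thra (-0.31, adjusted p 0.00572) and Nr2c1 (-0.30, adjusted p 0.0191) were called with overlapping groups. The call of Nr2c1 was lost without exon 2-3 control replicate 2 or 3, or exon 2 control replicate 3 or 4 (adjusted p 0.0508 to 0.0715), and after quantile normalisation (-0.20, adjusted p 0.0688). Rdh10 was not called (-0.16, adjusted p 0.213). After each library was centred on its median, the log2 fold change was -0.40 for Nr1d1 (adjusted p 0.00102), -0.28 for Esrrg (0.00916) and -0.19 for Rara (0.0425), the last 2 smaller by over 1.5 times. Thra (-0.13) and Nr2c1 (-0.12) were then not called. The exon 2-3 controls also held less mesenchyme marker RNA, 291 to 333 against 442 to 619 TPM summed over the 6 genes, and more cardiomyocyte marker RNA, 17193 to 18673 against 12712 to 14801 TPM. Not every marker followed its sum. Of the 6 mesenchyme genes 5 were called lower (38.1% of all genes) and 1, Dcn, higher (0.22). Of the 8 cardiomyocyte genes 5 were called higher (14.4% of all genes). Pln (-0.08), Myocd (-0.22) and Hand1 (-0.11) were not called. The part of these markers in the receptor values was not tested.

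The stretch of chromosome 11 from Thra to Rara holds 12 rows, of which 9 were tested. In the control contrast 7 of the 9 were lower in the exon 2-3 controls, against 38.1% of all genes. Between the receptor genes these were Msl1 (-0.25), Casc3 (-0.54), Rapgefl1 (-0.26) and Wipf2 (-0.56), which encode a chromatin subunit, an exon junction protein, a Ras exchange factor-like protein and an actin regulator. Gm12359 (0.04, limma adjusted p 0.817), a predicted gene, and Cdc6 (0.06, adjusted p 0.598) were not called. After median centring 4 of the 9 were called lower, Nr1d1, Casc3, Wipf2 and Rara, against 20.4% of all genes, and 1 was called higher, against 27.8%. The latter was Cdc6 (0.24, adjusted p 0.0102), which was also called higher after quantile normalisation (0.23, adjusted p 0.0143). Gm31862, which lies next to Nr1d1, was under the minimum at 0.602 TPM.

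In the exon 2-3 cKO, 1 of these 9 genes was called, against 6.72% of all genes. Cdc6, whose product loads the replicative helicase and which ends just before Rara, fell by 0.43 on the log2 scale (14.9 ± 1.32 to 10.8 ± 1.08 TPM, SD, n = 4 each, limma adjusted p 0.0244). Its neighbour Rara did not pass. No gene of the stretch was called in the exon 2 line, against 0.0763% of all genes.

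**Figure D3:**
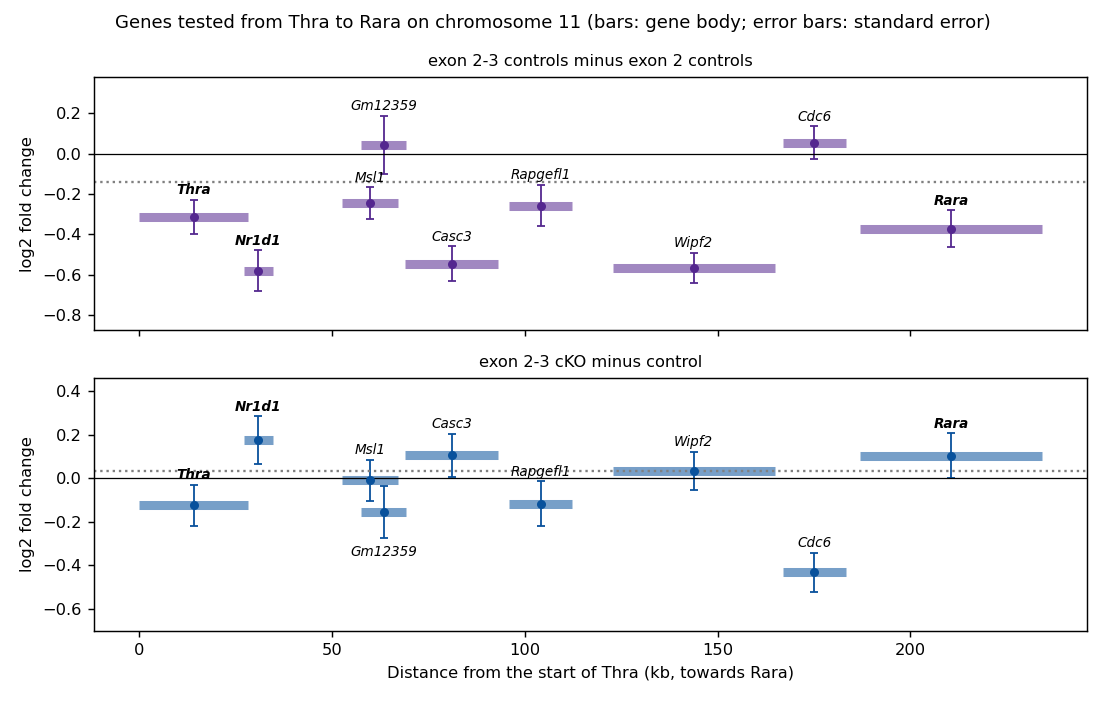
Log2 fold change (vertical axis) of the 9 genes tested from Thra to Rara against distance from the start of Thra in kb, for the control groups (top) and the exon 2-3 cKO (bottom), with standard errors and the median of all genes as a dotted line. The receptor genes are in bold. In the exon 2-3 controls 7 of 9 genes are called lower, against 38.1% of all genes (4 after median centring, against 20.4%, with Cdc6 higher). Cdc6 alone is called in the cKO (6.72% of all genes).

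The pathway around these genes was read from lists of receptors, retinoid enzymes and binding proteins, coregulators, thyroid hormone transporters and deiodinases, clock genes, retinoic acid responsive genes and oxidative genes described as targets of oestrogen-related receptors. Beside the 7 genes the lists name 169 others, of which 39 were on the rows held and 28 were tested. In the exon 2-3 line 0 of 28 passed (6.72% of all genes), with log2 fold changes between -0.28 and 0.39 and a median of 0.004. In the exon 2 line 0 of 28 passed (0.0763% of all genes), between -0.19 and 0.33 with a median of -0.01. The interaction called 0 of 28 (2.37%).

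Of 49 nuclear receptor genes listed, 11 were on the rows held, and the rest could not be looked at. Beside the 6 receptors described, only Nr1i3, a xenobiotic sensor, reached the minimum among those held. It was at 1.06 TPM (exon 2-3 line -0.18, limma adjusted p 0.646). Nr1h4, Nr2e1, Esr1 and Nr5a2 were each at or below a mean of 0.132 TPM. Of the other retinoid genes held, Rdh5, a retinol dehydrogenase gene, averaged 4.66 TPM, close to Rdh10, and had a log2 fold change of 0.19 (adjusted p 0.413). Rdh1, Rdh7, Rdh9 and Rdh16 were at or below 0.112 TPM. The retinoic acid responsive genes Hoxb2 and Meis1 had values of 0.05 and -0.0004, and neither was called.

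Each of the 13 coregulators held was tested. The largest difference in the exon 2-3 line was that of Ncoa2, a p160 coactivator gene, at 0.39 (SE 0.21, limma adjusted p 0.327), and its value in the exon 2 line was 0.33 (SE 0.12). Nrbf2 (0.22) and Med1, the Mediator subunit that contacts receptors (0.16), followed. Ncor1, the corepressor of unliganded thyroid and retinoic acid receptors, was at 0.04 and -0.01. It was among the 7 of 13 coregulators called lower in the exon 2-3 controls (-0.78, adjusted p 2.28e-07), against 38.1% of all genes. After median centring 3 of 13 were called lower, against 20.4% of all genes.

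The thyroid hormone transporter gene held, Slc16a10, had a log2 fold change of -0.28 in the exon 2-3 line (SE 0.10, limma adjusted p 0.142) and of -0.002 in the exon 2 line. The former passed after quantile normalisation (-0.34, adjusted p 0.0466; 5.88% of all genes called lower) and after median centring (-0.33, adjusted p 0.0348; 7.67% of all genes). The clock gene nearest to a call was Per2, at 3.59 ± 0.352 TPM in controls and 4.67 ± 0.514 TPM in the exon 2-3 cKO (SD, n = 4 each, 0.30, adjusted p 0.111). Timeless (-0.13) and Per1 (0.08) were further from it. Of the 5 oxidative genes, Mdh1 (-0.13, adjusted p 0.141), Cs (-0.10, adjusted p 0.276) and Atp5b (-0.11, adjusted p 0.337) had negative values in the exon 2-3 line. They encode the cytosolic malate dehydrogenase, citrate synthase and a subunit of ATP synthase. Ogdh was at 0.01, and the list median was -0.10. None was called, although Cs passed after median centring (-0.15, adjusted p 0.0180). The list median was -0.05 in the exon 2 line, where Esrrg was at 0.06.

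**Figure D4:**
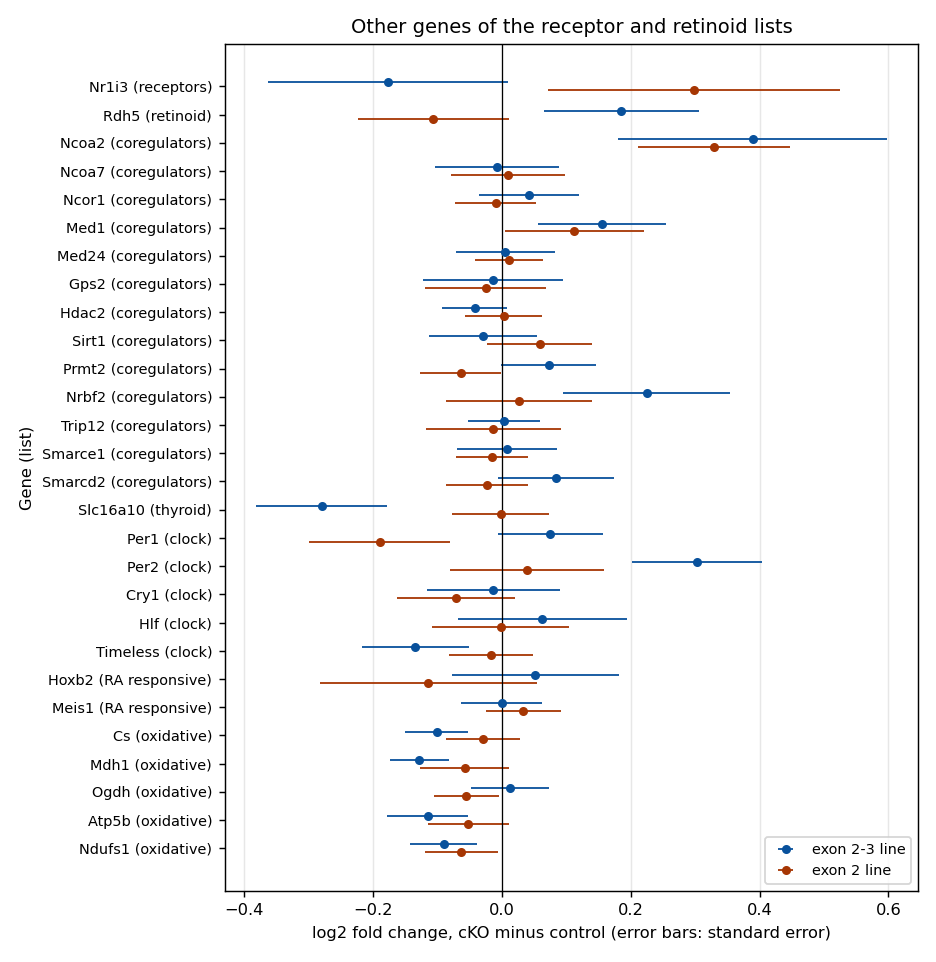
Log2 fold change of cKO minus control (horizontal axis, with standard errors) of the 28 other genes tested from the lists, in the exon 2-3 line (blue) and the exon 2 line (brown). No gene is called in either line, and Ncoa2 lies farthest to the right in both.

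How the genes varied from library to library was described by the genes most like them. For each gene, the deviation of log2(TPM + 1) from its group mean was correlated over the 16 libraries with that of all other genes tested. Libraries share depth and composition, which such a correlation also carries. The 2 highest of 2618 or 2619 correlations are given for each gene, and this choice by itself raises r. How high r would be among unrelated genes was not tested. Rara was most like Ankrd40 (Pearson's r 0.927) and Pigl (0.891). Thra was most like Cnksr3 (0.880) and Maml1 (0.870), and Nr1d1 most like Btg1 (0.921) and Camta2 (0.885). Nr2c1 was most like Txlnb (0.931) and Hey2 (0.845), Esrrg most like Yod1 (0.847) and Ppp4r3b (0.841), and Rdh10 most like Hint3 (0.834) and Tnfrsf13b (0.795). None of these genes is another receptor or retinoid gene of the lists.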

How the data were processed

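The authors deposited 1 table of TPM values, in which 16 columns matched the library names in the labels. Per the submitters' processing notes, FastQC, Trim Galore 0.6.7, HISAT2 2.2.1, StringTie 2.2.1, featureCounts, DESeq2 and the build GRCm38 were used. Which of these made the TPM values, the annotation and any use of strand are not given in the sources used here. The labels differ on library preparation (stranded mRNA or depletion of ribosomal RNA) and name cultured cortical neurons in the extraction text. The table was held in part (5921 rows), and 1 incomplete last line was left out. Coordinates of 5919 rows equalled RefSeq on GRCm38.p6.

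Values were analysed as log2(TPM + 1), for genes with a mean of at least 1 TPM, with limma 3.58.1 (lmFit, eBayes with trend) in R 4.3.3, each line on its 8 libraries and the interaction and controls in a group means model over 16. P-values are two-sided, adjusted by Benjamini-Hochberg over 2620 genes, with a threshold of 0.05. The procedure was tested on simulated data. Rxrg, under the minimum, was compared by an exact permutation test. Python 3.11.15 with pandas 2.3.3 served for tables, and matplotlib 3.10.9 for figures. Named genes are the 7 genes, list genes called in a knockout contrast or the interaction and up to 3 others per list with the smallest adjusted p in the exon 2-3 line, rows overlapping the 7 or between Thra and Rara, and the 2 genes most like each. Markers, the neighbour of Rxrg, and list genes under the minimum or named for the control contrast were added after their values were seen. One list gene is not reported here. The 7 genes and the lists were chosen with earlier results of these data known. Alternatives were other pseudocounts, filters and scalings, no trend, one fit, a replicate block and leaving out each library.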

Additional observations from a re-analysis of the deposited data

Results flagged for a closer look

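Rxrg in the exon 2 cKO was at 1.09 TPM in replicate 4, while the other 3 libraries of the group lay between 0.107 and 0.156 TPM. The gap was 0.950 of the group's range, above the Dixon limit of 0.829 for 4 values. Of 28 groups of values checked, for 7 genes in 4 groups, this was the 1 that passed the limit, and chance alone passes about 1 in 20.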

How the results depend on the processing

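Of 440 values of the 6 genes under the alternatives, 427 kept their direction and their side of the threshold. In the exon 2-3 line 1 of 101 values passed, Esrrg in one fit over all libraries. Thus 1 of the 6 genes was called lower there, against 3.24% of all genes. Esrrg stayed just above the threshold after median centring (-0.34, limma adjusted p 0.05004) and after quantile normalisation (-0.33, adjusted p 0.0531). In the exon 2 line 0 of 101 passed. In the interaction 1 of 143 passed, Esrrg after quantile normalisation. Thus 1 of the 6 genes was called with a negative value there, against 2.37% of all genes. After median centring 3 of the genes were called between the controls, each lower in the exon 2-3 controls, against 20.4% of all genes. Rdh10 turned to 0.024 there. Directions also turned for Thra in the interaction, between -0.13 and 0.0063 with 1 library left out (0.0063 without exon 2-3 control replicate 4 and 0.0039 without exon 2 control replicate 2), and for Nr2c1 in the exon 2 line, between -0.096 and 0.013 (0.013 without cKO replicate 1). The cause was not tested.

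The exon 2-3 count of 176 genes became 95 without a filter, 311 after quantile normalisation, 269 after rescaling without hemoglobin genes and 343 after median centring, and lay between 70 (without cKO replicate 3) and 190 (without control replicate 3) with 1 library left out. The share of these genes that was higher, 61.9%, became 50.5% after quantile normalisation and 41.4% after median centring. The interaction count of 62 became 133, 94 and 127 under the 3 scalings in that order, and 36 (without exon 2 cKO replicate 2) to 84 (without exon 2-3 control replicate 4) with 1 library left out. Its share higher, 67.7%, became 53.4% and 52.0% after quantile normalisation and median centring. The exon 2 count of 2 became 4 in one fit over all libraries and was 2 to 4 with 1 library left out. Between the controls the share higher, 27.5%, was 39.9% after quantile normalisation and 57.7% after median centring, where the median of all genes was 0.04. Without a filter, Rxrg had a log2 fold change of -0.77 between the controls (limma adjusted p 0.0208), where 18.4% of 5564 rows were called lower. This call was lost without exon 2 control replicate 1, 2 or 3 (adjusted p 0.0532 to 0.0710). Leaving out 1 library in the fit without a filter was chosen after seeing the data.

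Samples with the same replicate number were not shown to be paired. Their deviations correlated between -0.0287 and 0.211 for exons 2-3 and between 0.0639 and 0.200 for exon 2. In the exon 2-3 line only control 4 was most like the cKO of its own number. In the exon 2 line controls 1, 2 and 3 were, and control 4 was not. With the replicate block 149 genes were called for the exon 2-3 cKO, 2 for the exon 2 cKO, 68 in the interaction and 1305 between the controls, and no call of the 6 genes changed. With the minimum of 5 TPM, Rdh10 was not among the genes tested. TPM keeps no depth, so what depth limits could not be measured.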
